A study of Saccharomyces x bayanus with 4 samples.

Results

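The genes described are those of the yeast Saccharomyces bayanus whose array probes share sequence with probes of another gene. A gene was taken as a member when at least 1 of its 2 probes held a stretch of 20 nucleotides, on the same strand, that also occurred in a probe of a different gene. Genes of the assembly blocks 578, 626 and 678 were left out, and 191 of 5482 genes (3.48%) were members. The choice used the probe sequences alone and no signal. The files gave each gene an identifier of assembly block and gene number and no name, so no function is assigned to any gene here, and no probe sequence of this species is printed.

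The arrays measured 4 samples of total RNA from strain NRRL Y-11845, harvested at mid log phase, each on its own array. RNA was labelled with Cy3, and sheared genomic DNA of the same strain, which served as the reference on every array, was labelled with Cy5. All 4 samples form 1 group and no treatment was compared. The methods of the study describe its RNA samples as biological replicates, while the labels name no separate cultures. In Cy3 and in the ratio, p-values measure the spread between these samples. In Cy5, which holds the reference DNA, p-values and SDs measure the spread between arrays and not between RNA samples.

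Genes that share long stretches of sequence are usually duplicates, which arise by copying of a gene, a chromosome segment or the whole genome, or as members of repeated families such as those near chromosome ends and mobile elements. In yeasts of this genus, many retained pairs date from an ancient duplication of the whole genome and often encode abundant products such as ribosomal proteins. A probe that matches several copies hybridises to DNA and RNA of all of them, so the genomic DNA channel of such a probe can rise with copy number, and its RNA channel can sum over their transcripts. In an assembly, allelic or overlapping fragments can also place the same sequence under more than 1 identifier. Which of these applies to any group was not tested.

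Each array gave 10964 probes of 55 nucleotides for genes. The median Cy3 intensity of gene probes ranged over the 4 arrays between 2508 and 3205, and the median Cy5 intensity between 13701 and 15568. No gene probe was saturated. On every array, both probes and both channels stood well above background for 188 of the 191 members (98.4%), against 5363 of all 5482 genes (97.8%). The number of arrays limits the precision of every value.

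Members lay in 102 assembly blocks. Linking genes that share a stretch gave 79 groups of at least 2 genes, which held 179 members. There were 63 groups of 2 genes, 12 of 3, 3 of 4 and 1 of 5. The other 12 members shared a stretch only with genes of the left-out blocks. Both probes held a shared stretch in 120 members and 1 probe did in 71. The longest shared stretch was the whole probe in 49 members, 30 to 54 nucleotides in 85 and 20 to 29 nucleotides in 57, with a median of 40. Of 118 direct links between members, 110 joined genes of different blocks and 8 joined genes of the same block, of which 7 had consecutive numbers. An identical probe was present in both genes of 33 links, and both probes were identical in 14. Members had a median probe GC content of 41.8%, against 40% for all genes. Their 2 probes overlapped each other in 55 members (28.8%), against 1150 of all genes (21.0%), where overlap means a common stretch of at least 15 nucleotides.

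The genomic DNA signal of members was high. On the centred log2 Cy5 scale, where 0 is the median gene of an array and 1 unit is a 2-fold difference, the members' median was 0.987, 0.997, 1.009 and 0.997 on the 4 arrays, with a mean of 0.998 ± 0.009 (SD, n = 4 arrays). The arrays hardly differed in this value, which lay about 1 unit above the median gene on each. Genes were tested against the median gene with limma, and a call needed a Benjamini-Hochberg adjusted p under 0.05 over all genes and a mean at least 1 unit from 0. In Cy5, 97 of the 191 members (50.8%) were called above the median gene, against 4.3% of all genes tested. Members made up 97 of the 236 genes so called (41.1%). Only 2 members (1.05%) were called below, against 2.37% of all genes, and both are genes with dim probes described further on.

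The DNA signal was lowest in members with the shortest shared stretches. Median centred log2 Cy5 was 1.24 ± 0.02 for members with an identical probe in another gene, 1.13 ± 0.03 for members with a stretch of 30 to 54 nucleotides and 0.41 ± 0.02 for those with 20 to 29 (SD of the median, n = 4 arrays each). The shares called above in Cy5 were 34 of 49 (69.4%), 48 of 85 (56.5%) and 15 of 57 (26.3%). Just inside the limit of 20 nucleotides, 12 of the 43 members with a longest stretch of 20 to 24 (27.9%) were called above. Just outside it, 21 of 585 genes with a longest stretch of 15 to 19 (3.59%) were, and their median was -0.01. Genes with no shared stretch of 15 or more had a median of -0.02, and 104 of 4497 (2.31%) were called above. The shortest class of members thus lay between the longer classes and the genes outside the limit. By a probe's own longest stretch, the longer classes were nearly level, at 1.19 ± 0.03 for 55 nucleotides and 1.16 ± 0.02 for 30 to 54. The median was 0.71 ± 0.02 for 20 to 29. Over 311 shared probes, stretch length and log2 Cy5 were only weakly related, with Pearson's r = 0.232 and Spearman's rho = 0.249. Members with both probes shared had a median of 1.13 ± 0.03, and members with 1 shared probe 0.72 ± 0.02 (SD, n = 4 arrays).

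**Figure D1:**
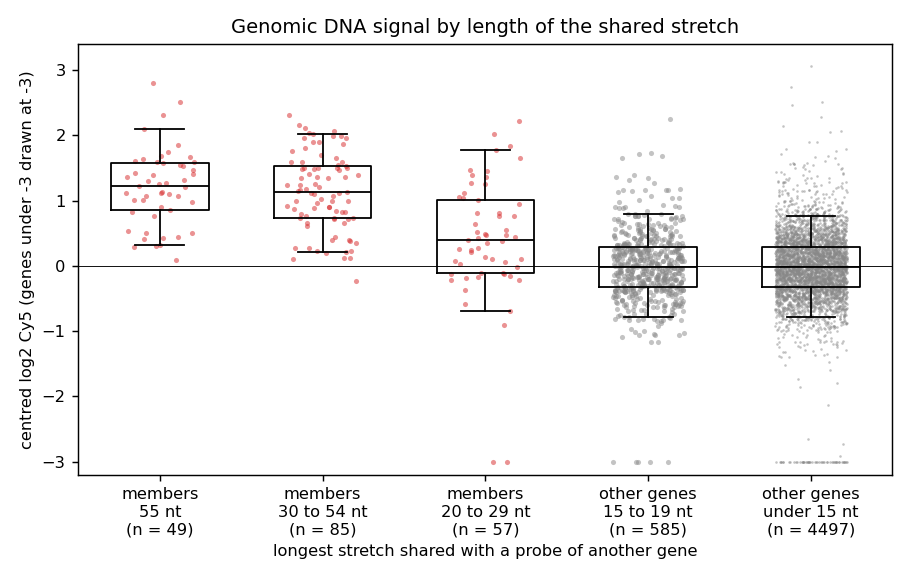
Centred log2 Cy5 (genomic DNA) per gene, mean of 4 arrays, by the longest stretch shared with another gene's probe. Points are genes, boxes give quartiles and median, whiskers the 5th and 95th percentiles, and genes under -3 are drawn at -3. Medians were 1.24, 1.13 and 0.41 in the members' classes, against -0.01 and -0.02 in other genes.

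The number of genes that held a probe's stretches was also set beside its signal. Shared probes of members whose stretches were held by 4 or more genes had a median centred log2 Cy5 of 1.33 ± 0.06 (15 probes), those held by 3 genes 1.11 ± 0.02 (61 probes) and those held by 2 genes 0.999 ± 0.02 (235 probes), against -0.02 for unshared probes over all genes (10235 probes; SD of the median, n = 4 arrays). Interquartile ranges overlapped among the 3 shared classes, which were 0.93 to 1.64, 0.53 to 1.59 and 0.45 to 1.48. The step between unshared probes over all genes and probes in 2 genes was far larger than the steps beyond it. Unshared probes of members themselves had a median of 0.77 ± 0.06 (71 probes). Within members the step to probes held by 2 genes was therefore small.

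Among other genes, DNA signal was also higher where RNA signal or GC content was higher, so members were also set against other genes of the same class. Among genes called above the median gene in Cy3, the median centred log2 Cy5 was 1.19 ± 0.03 for 102 members and 0.15 ± 0.02 for 1263 other genes. Among genes called below in Cy3 it was 0.67 ± 0.04 for 63 members and -0.13 ± 0.02 for 1161 other genes (SD, n = 4 arrays). The gap was smaller among genes called neither way in Cy3, at 0.32 ± 0.02 for 26 members and -0.05 ± 0.01 for 2658 other genes. At a mean probe GC content of 38 to 44%, the median was 1.04 ± 0.02 for 165 members and 0.05 ± 0.0021 for 4011 other genes. Under 38% it was 0.31 ± 0.06 for 23 members and -0.37 ± 0.0025 for 958 other genes. The members' median was therefore higher within each of these classes. The part of RNA level and GC content in the remaining spread was not tested.

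In the 71 members with 1 shared and 1 unshared probe, the difference in DNA signal between them went both ways, with a median near 0. The median difference in log2 Cy5, shared minus unshared, was 0.04, 0.01, 0.07 and 0.06 on the 4 arrays, and 0.083 over gene means, with quartiles of -0.37 and 0.39. The shared probe was higher in 38 of the 71 genes. It was higher on all 4 arrays in 33 and lower on all 4 in 28, so that genes differed from each other in a repeatable way with little net direction. The 71 unshared probes themselves had a median centred log2 Cy5 of 0.77 ± 0.06 (SD, n = 4 arrays). Among them, the 47 with no stretch of 15 nucleotides in another gene's probe had a median of 0.92 ± 0.06, and the 24 with a stretch of 15 to 19 nucleotides 0.17 ± 0.04, against -0.02 for the 9510 such probes of other genes with no stretch of 15. High DNA signal was thus not limited to the probe whose stretch had put the gene in the list.

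**Figure D2:**
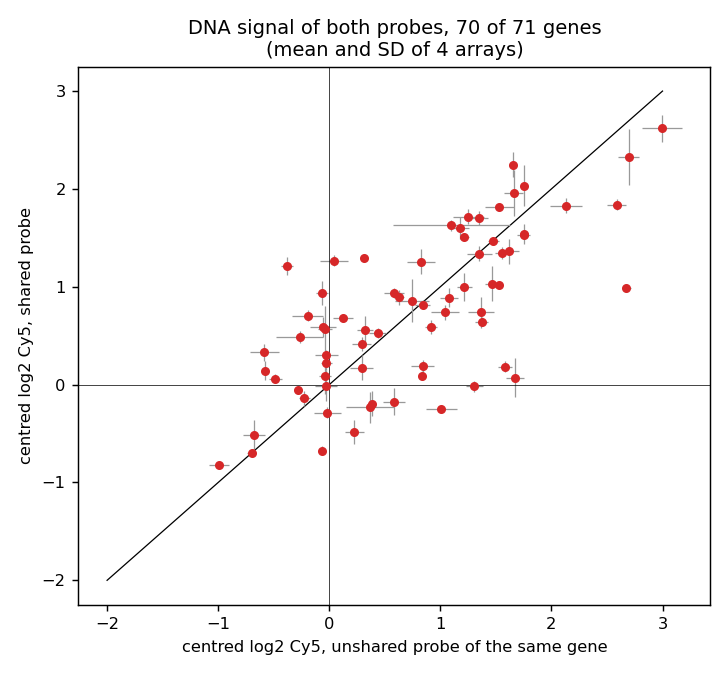
Centred log2 Cy5 of the shared probe (y axis) against the unshared probe of the same gene (x axis), mean and SD of 4 arrays, for 70 of the 71 genes with 1 shared probe. The line marks equal signal, and sbay_c92-g1.1, whose unshared probe was not well above background, is not drawn. Genes lie on both sides of the line, with the shared probe higher in 38 of all 71.

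The largest shared minus unshared differences were named by rule. The first of them, sbay_c92-g1.1, had a shared probe at 478, 617, 571 and 623 Cy5 intensity units and an unshared probe that was not well above background on any array, so its difference is only a bound. In sbay_c617-g1.1 the shared probe gave 1.25, 1.09, 1.21 and 1.30 centred log2 Cy5 on the 4 arrays, and the unshared probe -0.39, -0.45, -0.32 and -0.35. The difference of 1.59 ± 0.06 (SD, n = 4 arrays) went with a difference of 3.06 in log2 Cy3. The opposite held in sbay_c623-g23.1, with -0.22, 0.12, 0.21 and 0.18 at the shared probe and 1.66, 1.66, 1.59 and 1.78 at the unshared probe, a difference of -1.60 ± 0.20. In sbay_c621-g29.1 the shared probe gave 1.015, 1.009, 0.926 and 1.004 and the unshared probe 2.68, 2.72, 2.68 and 2.62, so that the probe with the recognised stretch was the weaker on every array.

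RNA levels of members were spread to both ends. The measure used is the log2 Cy3/Cy5 ratio, which is RNA over genomic DNA, quantile normalised across arrays and centred on the median gene. It is a relative level in a whole culture, in which fewer cells with a transcript and less of it per cell cannot be told apart. In this ratio 93 of the 191 members (48.7%) were called above the median gene, against 25.8% of all genes, and 72 (37.7%) were called below, against 24.6% of all genes. Only 26 members were called neither way. In Cy3 alone, before division by DNA signal, 102 members (53.4%) were above, against 25.8% of all genes, and 63 (33.0%) were below, against 23.3%. Of the members above in the ratio 59 were also above in Cy5, and of those below in the ratio 32 were. These counts stand without the matching counts over all genes and are not read as a result about the members.

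The upper end of the ratio depended on how signals were processed. With the software's processed signals, which include a dye normalisation by lowess, 20 members (10.5%) were above the median gene and 72 (37.7%) below, against 12.9% and 14.9% of all genes. With those signals in Cy3 alone, 94 members (49.2%) were above, against 20.3% of all genes. Without the 3 members that had a dim probe, the shares in the main values were 91 of 188 above (48.4%) and 71 of 188 below (37.8%), against 25.5% and 24.2% of 5363 genes so filtered.

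The direction differed with the size of the group. In groups of 2, 85 of 126 genes (67.5%) were above the median gene in the ratio and 28 (22.2%) were below. In groups of 3, none of 36 genes was above and 25 (69.4%) were below. In groups of 4 or 5, 1 of 17 genes was above and 15 (88.2%) were below. The median ratio was 3.58 ± 0.04 in groups of 2, -2.44 ± 0.03 in groups of 3 and -3.11 ± 0.25 in groups of 4 or 5 (SD of the median, n = 4 arrays). A split in the same direction, but less complete, was seen in Cy3 alone, with a median centred log2 Cy3 of 4.82 ± 0.23, -1.17 ± 0.04 and -1.41 ± 0.19. In groups of 3, 7 of 36 genes (19.4%) were above in Cy3 and 21 (58.3%) below. In groups of 4 or 5, 2 of 17 were above and 13 (76.5%) below. In groups of 2, 86 of 126 (68.3%) were above and 26 (20.6%) below. Over all genes 25.8% were above in Cy3 and 23.3% below. Counted by group, all genes were above in the ratio in 42 of 63 groups of 2 and in none of the 16 larger groups, and all were below in 14 of 63 groups of 2 and in 11 of the 16 larger groups. Whether group sizes differ in level was not tested, since linked genes share probe sequence and are not replicates. Over all genes 25.8% were above in the ratio and 24.6% below. With processed signals the share above was 15.9% in groups of 2, close to the 12.9% of all genes, and the share below in groups of 3 to 5 was 83.0%, against 14.9% of all genes. The high share above in groups of 2 was thus nearly lost with those signals in the ratio, and the share below in larger groups, 75.5% in the main values, was not.

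**Figure D3:**
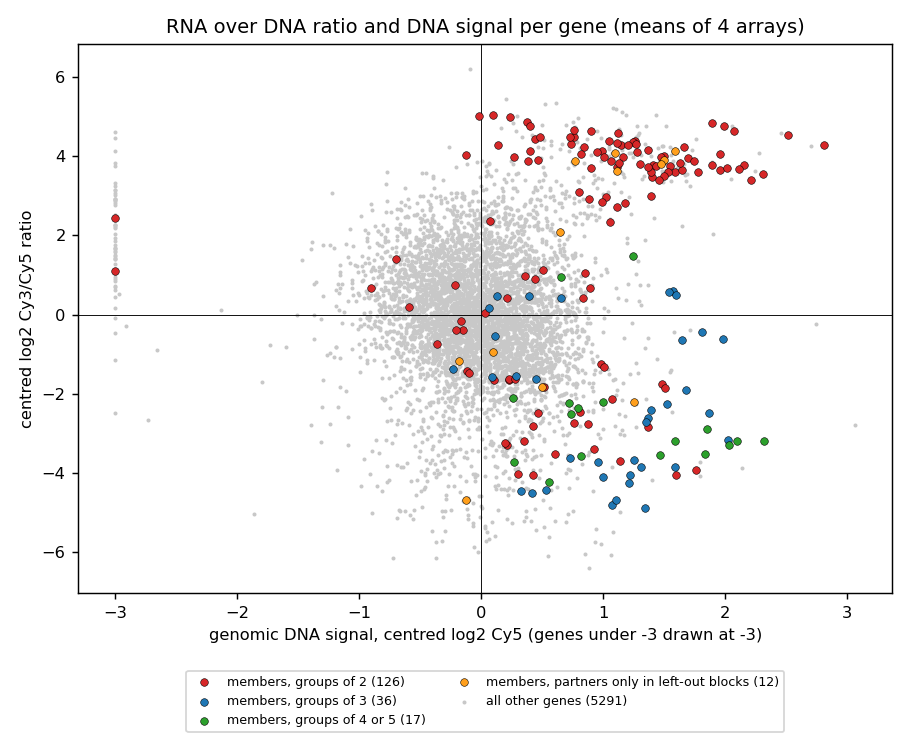
Centred log2 Cy3/Cy5 ratio (RNA over DNA, y axis) against centred log2 Cy5 (genomic DNA, x axis) per gene, mean of 4 arrays, with members coloured by group size and all other genes in grey. Genes under -3 in Cy5 are drawn at -3. Most genes of groups of 2 lie at the top right, with a median ratio of 3.58, and those of groups of 3 and of 4 or 5 lie mainly below 0, with medians of -2.44 and -3.11.

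DNA signal did not split with group size in this way. Median centred log2 Cy5 was 0.96 ± 0.01 in groups of 2, 1.20 ± 0.03 in groups of 3 and 0.97 ± 0.05 in groups of 4 or 5 (SD, n = 4 arrays). The shares called above were 61 of 126 (48.4%), 22 of 36 (61.1%) and 8 of 17 (47.1%), against 4.3% of all genes. The 12 members whose partners all lay in the left-out blocks had a median Cy5 of 0.92 ± 0.06 and a median ratio of 2.83 ± 0.10. Of these members, 7 (58.3%) were above in the ratio and 4 (33.3%) below, against 25.8% and 24.6% of all genes.

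Directly linked genes had nearly the same ratio. This was in part set by the choice, since links were defined by shared probe sequence and 33 held an identical probe. The median absolute difference over the 118 links was 0.160 log2 units, while over all pairs of genes on the array it was 1.56. It was 0.080 for links with an identical probe, 0.128 for a longest stretch of 30 to 54 nucleotides and 0.358 for 20 to 29. The difference was under 1 unit in 107 of 118 links (90.7%), against 33.9% of all pairs of genes, and in the other 11 links it kept its sign on all 4 arrays. Both genes were called above in 42 links, both below in 55 and both neither in 15, while the calls differed in 6, in 1 of which they were opposite. Over all genes 25.8% were called above in the ratio and 24.6% below. Genes of larger groups enter several links, so these are not counts of members. Across links, the ratio of 1 gene followed that of the other with Pearson's r = 0.975 and Spearman's rho = 0.964 (n = 118 links, which share genes and probe sequence). For Cy5 the values were 0.505 and 0.783. These include the links of sbay_c76-g1.1 and sbay_c92-g1.1, which have dim probes and differed from their partners by 10.97 and 7.26 in log2 Cy5. The median absolute Cy5 difference was 0.238 over links and 0.467 over all pairs of genes.

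**Figure D4:**
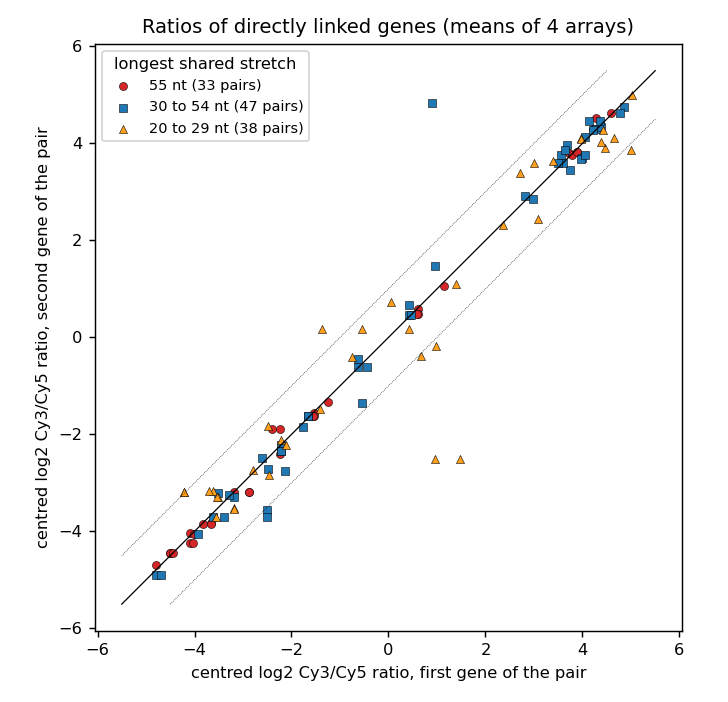
Centred log2 Cy3/Cy5 ratios of the 2 genes of each of 118 links, mean of 4 arrays, by longest shared stretch. The solid line marks equal ratios and dotted lines a difference of 1 unit. Of the links, 107 lie within the dotted lines.

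An identical probe printed under 2 identifiers gives the error of a spot. Over 47 such spot pairs, all between members, the median absolute difference was 0.176 in log2 Cy3, 0.151 in log2 Cy5 and 0.099 in the ratio, and 40 of the 47 differed by under 0.25 in the ratio. The largest ratio difference was 0.656 as a mean over arrays, and in that pair it was 1.26 on replicate 2. These spots also make up the gene values of the 33 links with an identical probe, so both sets of differences come from the same measurements.

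Linked genes were also compared at probes that share no stretch of 20 nucleotides. In 30 links each gene had 1 shared and 1 unshared probe. The absolute ratio difference had a median of 0.269 between their shared probes and of 0.441 between their unshared probes, and the difference was under 1 unit in 25 and 24 of the 30 links. The unshared probes differed by more than the shared probes in 20 of the 30. On single arrays the median was 0.362, 0.409, 0.412 and 0.312 between shared probes and 0.508, 0.506, 0.523 and 0.541 between unshared probes. Without sbay_c92-g1.1, whose unshared probe was not well above background, the medians over 29 links were 0.266 and 0.411. Some unshared probes still had a common stretch, of up to 19 nucleotides. No value over probes of unlinked genes is set beside these differences.

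The link with the largest difference among groups of 2 joined sbay_c571-g5.1 and sbay_c672-g24.1 by a stretch of 30 nucleotides. The ratio of sbay_c571-g5.1 was 0.79, 0.996, 0.83 and 0.99 on the 4 arrays, and that of sbay_c672-g24.1 was 4.70, 4.84, 4.90 and 4.90. The groups of values did not overlap, and the difference was -3.93 ± 0.10 (SD, n = 4 arrays). The gap was larger in the unshared probes, which differed by 6.46, than in the shared probes, which differed by 1.43. At probe level the shared probe of sbay_c571-g5.1 had a ratio of 3.22 ± 0.18 and its unshared probe -1.43 ± 0.20, whereas in sbay_c672-g24.1 the shared probe gave 4.64 ± 0.29 and the unshared probe 5.03 ± 0.23. The gene-level ratio of sbay_c571-g5.1 is thus a mean of unlike values. In the next such pair, sbay_c611-g11.1 had ratios of 0.985, 1.163, 0.999 and 0.733 and sbay_c650-g5.1 had -0.16, -0.09, -0.13 and -0.31, with a shared stretch of 22 nucleotides.

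Disagreement between the probes of a gene was not much more common in members. The ratio differed by at least 1 unit between probes, at an adjusted p under 0.05 by limma, in 14 of 190 members tested (7.37%), against 5.47% of all genes. A share so near the background is no result about the members.

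The 4 groups of 4 or 5 genes were mostly low in RNA. The group of 5 held sbay_c476-g1.1, sbay_c476-g2.1, sbay_c582-g9.1, sbay_c644-g35.1 and sbay_c676-g52.1. Ratios of sbay_c476-g2.1 were 1.26, 1.75, 1.63 and 1.21 (called above), and those of its block neighbour sbay_c476-g1.1 were 1.16, 1.17, 1.05 and 0.46 (called neither way, mean 0.96). The other 3 genes had means of -2.51, -3.56 and -3.71 and were all called below. Both high genes were tied to the low ones only through sbay_c582-g9.1, by stretches of 20 nucleotides, with differences of 3.46 ± 0.40 and 3.97 ± 0.40 (SD, n = 4 arrays). The probes of sbay_c582-g9.1 themselves differed by -2.64 in the ratio (first minus second by probe name), so its value too is a mean of unlike probes.

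In the group of sbay_c479-g3.1, sbay_c553-g2.1, sbay_c553-g3.1 and sbay_c634-g36.1, all 4 genes were below the median gene, with mean ratios of -4.22, -2.88, -3.19 and -3.19. Their DNA signal was unequal. Mean centred log2 Cy5 was 1.85, 2.32 and 2.10 in the last 3 genes, which carry an identical probe, and 0.56 in sbay_c479-g3.1, which joins them by 21 nucleotides. In the group of sbay_c479-g5.1, sbay_c625-g26.1, sbay_c637-g37.1 and sbay_c673-g5.1, ratios lay close together, at -2.23, -2.11, -2.21 and -2.35, and Cy5 ranged between 0.259 and 0.999. All 4 were called below in the ratio and none above in Cy5. In the last group of 4, which held sbay_c539-g7.1, sbay_c621-g29.1, sbay_c672-g18.1 and sbay_c676-g35.1, all genes were called below in the ratio, with means of -3.18, -3.51, -3.53 and -3.29, and above in Cy5, with means of 1.59, 1.84, 1.47 and 2.03.

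**Figure D5:**
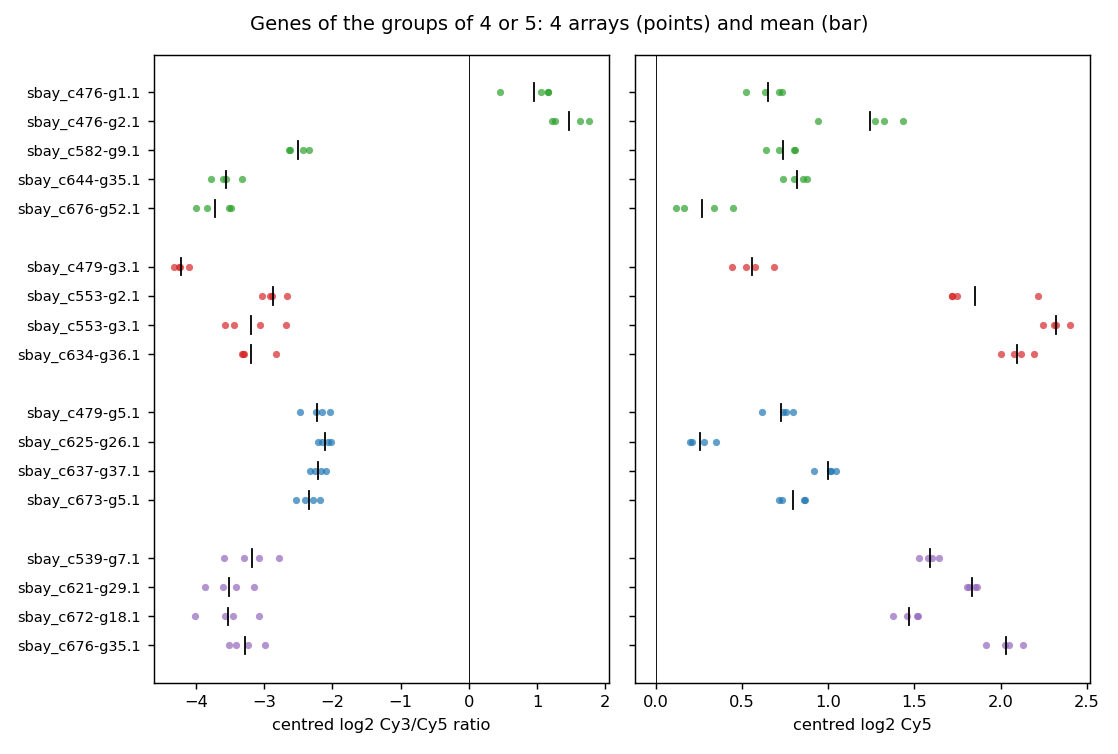
Centred log2 Cy3/Cy5 ratio (left) and centred log2 Cy5 (right) of the 17 genes of the groups of 4 or 5. Points are the 4 arrays, bars their mean, and colours the groups. The genes sbay_c476-g1.1 and sbay_c476-g2.1 lie above 0 in the ratio, and the other 15 lie below it.

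Groups of 2 with both probes identical in sequence gave alike ratios at high and at low RNA levels. Both genes of such a pair carry the same probe sequences, so this likeness was fixed by the choice. It shows how well repeat spots agree and nothing about the genes. The first 5 in identifier order are given. The ratio was 4.55, 4.47, 4.68 and 4.65 in sbay_c197-g1.1 and 4.52, 4.44, 4.88 and 4.70 in sbay_c643-g37.1. At the low end it was -3.97, -4.03, -4.16 and -3.89 in sbay_c598-g12.1 and -4.10, -4.12, -3.98 and -4.03 in sbay_c634-g29.1. The values of each pair overlapped between its genes. The pair sbay_c383-g1.1 and sbay_c623-g21.1 had group means of -1.33, -1.21, -1.28 and -1.32 over the arrays, the pair sbay_c624-g10.1 and sbay_c668-g2.1 had 3.90, 3.87, 3.79 and 3.84, and the pair sbay_c479-g4.1 and sbay_c673-g4.1 had 1.12, 1.39, 1.22 and 0.65. Mean Cy5 of the 5 pairs ranged between 0.36 ± 0.04, in the pair of sbay_c598-g12.1, and 1.098 ± 0.12 in that of sbay_c624-g10.1 (SD, n = 4 arrays). Identical probes thus did not always come with a DNA signal 1 unit above the median gene.

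The highest groups in the ratio, among groups with all genes well above background, were sbay_c529-g5.1 with sbay_c656-g32.1, at 4.98, 5.01, 5.07 and 4.99 on the 4 arrays, and sbay_c504-g11.1 with sbay_c631-g18.1, at 4.84, 4.77, 4.75 and 4.84. Their DNA signal was close to that of the median gene, with mean centred log2 Cy5 of 0.04 ± 0.06 and 0.39 ± 0.04. The lowest were sbay_c582-g8.1 with sbay_c644-g36.1 and sbay_c676-g53.1, at -4.82, -4.90, -4.91 and -4.54, and sbay_c625-g23.1 with sbay_c673-g11.1 and sbay_c676-g56.1, at -4.49, -4.56, -4.58 and -4.21. These groups of 3 had Cy5 means of 1.17 ± 0.05 and 0.42 ± 0.02 (SD, n = 4 arrays). In sbay_c582-g8.1 the mean intensity was 223 in Cy3 and 30988 in Cy5, so the low ratio came with abundant DNA signal.

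In the same set of groups, the strongest DNA signal was found in sbay_c534-g6.1 with sbay_c646-g32.1, at 2.67, 2.71, 2.63 and 2.63 centred log2 Cy5, followed by sbay_c566-g11.1 with sbay_c669-g14.1, at 2.37, 2.07, 2.09 and 1.88. Both groups were also high in RNA, with mean ratios of 4.40 ± 0.05 and 3.66 ± 0.16. Among groups with all genes well above background, the lowest DNA signal was found in sbay_c504-g12.1 with sbay_c631-g17.1, at -0.48, -0.54, -0.53 and -0.55, and in sbay_c576-g10.1 with sbay_c674-g44.1, at -0.32, -0.30, -0.28 and -0.24. Their mean ratios were 0.14 ± 0.11 and -0.57 ± 0.09, and their shared stretches of 26 and 20 nucleotides were short.

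Links also came in runs, where neighbouring genes of 1 block matched neighbouring genes of another, with gene numbers no more than 3 apart. There were 13 such runs, with 28 links and 42 genes. Blocks 582, 644 and 676 were joined in this way, with median ratios of -4.12, -4.26 and -4.20 over the genes of the 3 pairs of blocks. So were blocks 625, 673 and 676, with medians of -4.14, -4.14 and -3.84. Runs high in RNA joined blocks 548 and 573 (median ratio 4.04), 641 and 659 (3.68) and 516 and 650 (2.89). The run between blocks 504 and 631 held both a high pair and a pair near the median gene, with ratios between -0.39 and 4.85. Gene numbers ran the same way in both blocks in 6 of the 13 runs and opposite ways in 7.

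The 3 members with a dim probe carry limits of their own. Both probes of sbay_c76-g1.1 were not well above background in either channel on any array, with Cy5 intensities between 7 and 23.5, whereas its partner sbay_c663-g33.1 averaged 25783. Its ratio has no interpretable value, although it counts among the members called above. The unshared probe of sbay_c92-g1.1 was likewise not well above background, and its partner sbay_c677-g77.1 had Cy5 values of -0.72, -0.67, -0.69 and -0.69. The gene sbay_c92-g1.1 also counts among the members called above in the ratio. Its shared probe gave a ratio of -0.75 and its dim probe 2.95, so that call rests on the dim probe. In sbay_c660-g11.1, 1 probe was well above background in Cy3 on 3 of 4 arrays. The first 2 of these genes are the only members called below in Cy5.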

How the data were processed

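The 4 arrays of total RNA (Cy3) against genomic DNA (Cy5) were analysed. The deposited scanner tables, made by the authors with Agilent Feature Extraction 10.1.1.1 per the file headers, give spot intensity on a linear scale. The methods of the study name another version of this software. The deposited table of per-gene log2 values was not used, since its row numbers match no probe column.

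After the study's methods, each spot's median signal had its local background median taken off, log2 values were formed, probes of a gene were averaged, the Cy3/Cy5 ratio was quantile normalised, and values were centred on the median gene. Each channel alone was only centred. Control and outlier spots were left out, and a gene needed 3 arrays. Genes were tested with limma 3.58.1 (R 4.3.3, intercept, 2-sided, Benjamini-Hochberg over all genes) after the calculation was tested on simulated data. Stretches were searched and groups linked with Python 3.11.15 and networkx 3.6.1.

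Named were the 3 largest groups (the 3 groups of 4 tie, so the last of them in identifier order was added), the first 5 groups of 2 with identical probes, the 2 highest and 2 lowest groups in ratio and in Cy5, the 2 groups of 2 with the largest ratio difference, and the genes with the largest shared minus unshared differences. Other members and the runs were described after their values were seen. The members and lists were chosen with earlier results of these data known. Alternatives were other background corrections and normalisations, stretch lengths and strands, a filter on dim probes, another distance, and each array left out.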

Additional observations from a re-analysis of the deposited data

Results flagged for a closer look

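Of 58 values examined over the 4 arrays, which were the members' medians and the means of the named groups in the ratio, Cy5 and Cy3, 1 held an array far from the others. The mean centred log2 Cy5 of the group of sbay_c504-g11.1 and sbay_c631-g18.1 was 0.334 on replicate 3, against 0.414, 0.406 and 0.414 on replicates 1, 2 and 4. The gap was 0.895 of the whole range. Chance alone sets apart about 1 in 20 such sets of 4 values.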

How the results depend on the processing

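Of 159 recomputed values of the main results, 126 stayed close to the value reported, which for a share means within 1.5 times and for a median within 1 SD over arrays, a narrow limit for Cy5. The limit for a share looks at members alone. Members above in Cy5 counted as close at 64.9% with processed signals and 67.5% with normexp. All genes above in Cy5 were then 12.3% and 11.3%, while the main values were 50.8% of members and 4.3% of all genes. With processed signals, members above in the ratio were 10.5%, against 12.9% of all genes, and members below in Cy5 2.09%, against 9.45%. Members of groups of 2 above in the ratio were 15.9%, and members with differing probes 14.2%. The median Cy5 was 1.81 and the median difference between linked genes 0.295. The median ratio of members, 0.90 in the main values, reversed to -0.39. With normexp and an offset of 50, differing probes were 11.6%, median Cy5 1.76, shared minus unshared Cy5 0.044 and the linked difference 0.230. With a stretch of 15 nucleotides, which takes in 776 genes, members below in the ratio were 21.8%, against 24.6% of all genes. Those above in Cy5 were 15.2%, against 4.3%, below in Cy5 2.06%, against 2.37%, and below in Cy3 20.5%, against 23.3%. Median Cy5 was 0.137, shared minus unshared reversed to -0.076 and the linked difference was 1.01. Groups of 2 above and larger groups below in the ratio were 40.3% and 31.0%, against 25.8% and 24.6% of all genes. With 30 nucleotides (134 genes), members below in Cy5 were 0%, against 2.37% of all genes. Median Cy5 was then 1.16, shared minus unshared 0.024 and the linked difference 0.114. With dim genes left out, members below in Cy5 were 0%, against 1.27% of genes so filtered, and shared minus unshared was 0.016. With the left-out blocks dropped before the search (179 members) the latter was 0.114. At a distance of 0.5 units, below in Cy5 was 2.62% and differing probes 30.5%. In the fits with 1 array left out, median Cy5 was 0.990 to 1.03, the linked difference 0.157 to 0.188, shared minus unshared 0.066 to 0.085, above in the ratio 48.2 to 49.7% and above in Cy5 48.7 to 51.3%. No share of all genes is set beside the differing probes, the distance of 0.5 units or the fits with 1 array left out. Those shares are not read as results about the members. The causes of these shifts were not tested. Searching either strand found the same number of members. Values by group size, with their alternatives, were chosen after seeing the data. The alternative with the deposited per-gene table was not run, since its row numbers match no probe column. No paired analysis was possible because all samples form 1 group.

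The near 0 difference between shared and unshared probes has no settled sign. Cross-hybridisation between copies cannot be told apart from copy number in these signals. Probes of other genes that match a member over fewer than 20 nucleotides, or with mismatches, were not counted as shared.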
